A study of Mus musculus with 6 samples.

Results

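Cholesterol and fatty acid synthesis genes were followed in regulatory T (Treg) cells, the T cells that restrain immune responses, across genotypes that remove Foxo1 or add a constitutively active form of it. The 31 genes were chosen by name, with earlier results of these data known. They covered enzymes of the route from acetyl-CoA to cholesterol, the SREBP transcription factors and their partners, and a sterol carrier. Enzymes of fatty acid synthesis and desaturation were also included. All 31 had a probe set among the 18194 genes that the arrays could name, each gene was represented by its brightest probe set over the 6 arrays, and all 31 were among the 13645 genes that passed the filter on low levels. The cells were sorted by flow cytometry from C57BL/6 mice: WT mice (2 arrays), Foxo1KO mice (2 arrays), Foxo1AAA mice, which express constitutively active Foxo1 (1 array), and Foxo1KO/Foxo1AAA mice, which carry both changes (1 array). What drives the deletion and the active form, the age and sex of the mice, the gates of the sort and any pooling of animals are not given in the sources used here. Nothing in the labels states that replicates came from separate mice, so p-values measure only the spread between these arrays. The Y-linked gene Eif2s3y differed widely within both pairs, as given below, so the arrays of a pair did not hold the same RNA. How much of their spread lies between animals is not known.

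Cholesterol is built from acetyl-CoA through mevalonate, isoprenoid units, squalene and lanosterol. SREBP2, encoded by Srebf2, is held in the endoplasmic reticulum with Scap and Insig proteins and turns on most enzymes of the route when membrane sterol is low; SREBP1, encoded by Srebf1, acts more on fatty acid synthesis. In T cells the mevalonate route also feeds protein prenylation, and both routes supply membrane to dividing cells. Foxo1 is a forkhead transcription factor that Akt signalling drives out of the nucleus.

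Levels below are the deposited log2 values and differences are on the same scale, so that a difference of 1 is a doubling. A gene is called higher or lower where the Benjamini-Hochberg adjusted p from limma, taken over all tested genes, was under 0.05. The number of arrays limits the precision of every value. With 2 arrays in each group, the smallest p that exact permutation allows is 0.333, so no single gene could be tested that way. A group with 1 array was assumed to vary as much as the WT and Foxo1KO pairs do. The arrays measure bulk RNA, in which fewer cells of a type and less RNA per cell cannot be told apart.

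Replicate arrays correlated at 0.996 in both pairs, and the Foxo1AAA and Foxo1KO/Foxo1AAA arrays at 0.994 with each other. Foxo1 read 11.03 and 11.35 in WT, 10.87 and 10.65 in Foxo1KO, 10.71 in Foxo1AAA and 9.66 in Foxo1KO/Foxo1AAA. The Foxo1KO arrays lay below both WT arrays by a difference of -0.43 (SE 0.13, adjusted p = 0.0448), and the adjusted p was 0.237 without WT replicate 2, 0.0628 without Foxo1KO replicate 1 and 0.225 without Foxo1KO replicate 2, and 0.0626 with arrays centred on their medians. Neither array with the active form read above WT. Where the probe set lies relative to the deleted part is not stated by the labels. Of the Treg markers, Il2ra (11.15 to 11.48), Ctla4 (12.29 to 13.06) and Ikzf2 (13.26 to 13.63) were bright on all 6 arrays, while the probe set of Foxp3, the defining Treg factor, was dim on all of them (5.10 to 5.58) and did not pass the filter. Some Treg markers differed between groups. In Foxo1KO, Ctla4 was called higher than in WT (0.46, adjusted p = 0.0459) and Cd4 lower (-0.37, 0.0193). Ikzf4 was called lower than WT in Foxo1AAA (-0.53) and Foxo1KO/Foxo1AAA (-0.70). Ikzf2 (-0.34) and Ikzf4 (-0.46) were called lower in Foxo1KO/Foxo1AAA than in Foxo1KO. Il2ra, Tnfrsf18 and Cd3e were called in none of these comparisons.

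The 2 arrays with the active form stood apart in markers of other cells. Summed over the 6 of 7 macrophage and monocyte markers with a probe set, the log2 level was 38.38 to 40.13 in WT, 40.57 to 42.45 in Foxo1KO, 54.22 in Foxo1AAA and 55.71 in Foxo1KO/Foxo1AAA. Csf1r, the receptor that macrophages need to survive, read 8.36 to 9.12 on the 4 other arrays, 11.99 in Foxo1AAA and 12.38 in Foxo1KO/Foxo1AAA. B cell markers (5 of 6 with a probe set) summed to 33.09 to 34.58 in WT, 33.23 to 36.21 in Foxo1KO, 39.41 in Foxo1AAA and 38.04 in Foxo1KO/Foxo1AAA. Ms4a1, Cd79a and Cd79b were called higher than WT in both groups with the active form. Pax5 (-0.03 and -0.17) and Blk (0.35 and -0.06) were not. Dendritic cell markers summed to 37.0 to 38.1 in WT, 38.5 to 39.0 in Foxo1KO, 39.6 in Foxo1AAA and 39.9 in Foxo1KO/Foxo1AAA. In both groups with the active form, Itgax, Flt3, Siglech and Batf3 were called higher than WT and Zbtb46 lower (-0.88 and -0.68). Some markers also moved in Foxo1KO. Summed over the 4 of 5 CD8 T and NK cell markers with a probe set, the level was 27.42 and 27.23 in WT, 30.14 and 30.15 in Foxo1KO, 27.93 in Foxo1AAA and 29.03 in Foxo1KO/Foxo1AAA; Eomes, a factor of these cells, was called higher in Foxo1KO by 2.25 (adjusted p = 2.26e-06), alone of the 4 tested. Of the 5 tested macrophage markers, Lyz2 (0.92, adjusted p = 0.00935) and Cd68 (0.55, 0.017) were called higher in Foxo1KO. So was the dendritic cell marker Batf3 (0.80, adjusted p = 0.00328). The 3 adipocyte markers with a probe set were near background throughout (13.48 to 14.78 summed), and none passed the filter. Xist read 12.03 to 13.43 in WT and Foxo1KO, against 6.04 and 6.27 in the arrays with the active form. The Y-linked gene Eif2s3y read 3.91 and 4.05 in replicate 1 of WT and of Foxo1KO, against 9.91 to 10.59 on the other arrays. The part of these differences in the results below was not tested.

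In Foxo1KO Treg cells, 7 enzymes between HMG-CoA synthesis and lanosterol demethylation and a sterol carrier rose. Acss2 of acetate use, the fatty acid desaturase Scd2 and Sc5d of a late sterol step fell. The other fatty acid desaturases, Scd1 (0.59), Fads1 (0.22) and Fads2 (0.31), had positive differences that were not called. Of the 31 genes, 8 were higher and 3 lower than in WT, which is 35.5% called against 21.8% of all tested genes (11.2% higher and 10.7% lower). The median difference over the 31 genes was 0.12, against 0.03 over all tested genes, and single genes ranged from -0.94 for Acss2 to 0.66 for Sqle. Hmgcs1, Pmvk, Mvd, Idi1, Fdft1, Sqle, Cyp51 and Stard4 were higher, and Acss2, Scd2 and Sc5d were lower. With each array centred on its median, 8 were higher and 5 lower, Tm7sf2 and Scap joining the lower ones. Beside these counts stand the higher Eomes, Lyz2, Cd68 and Batf3 in Foxo1KO, whose part was not tested.

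**Figure D1:**
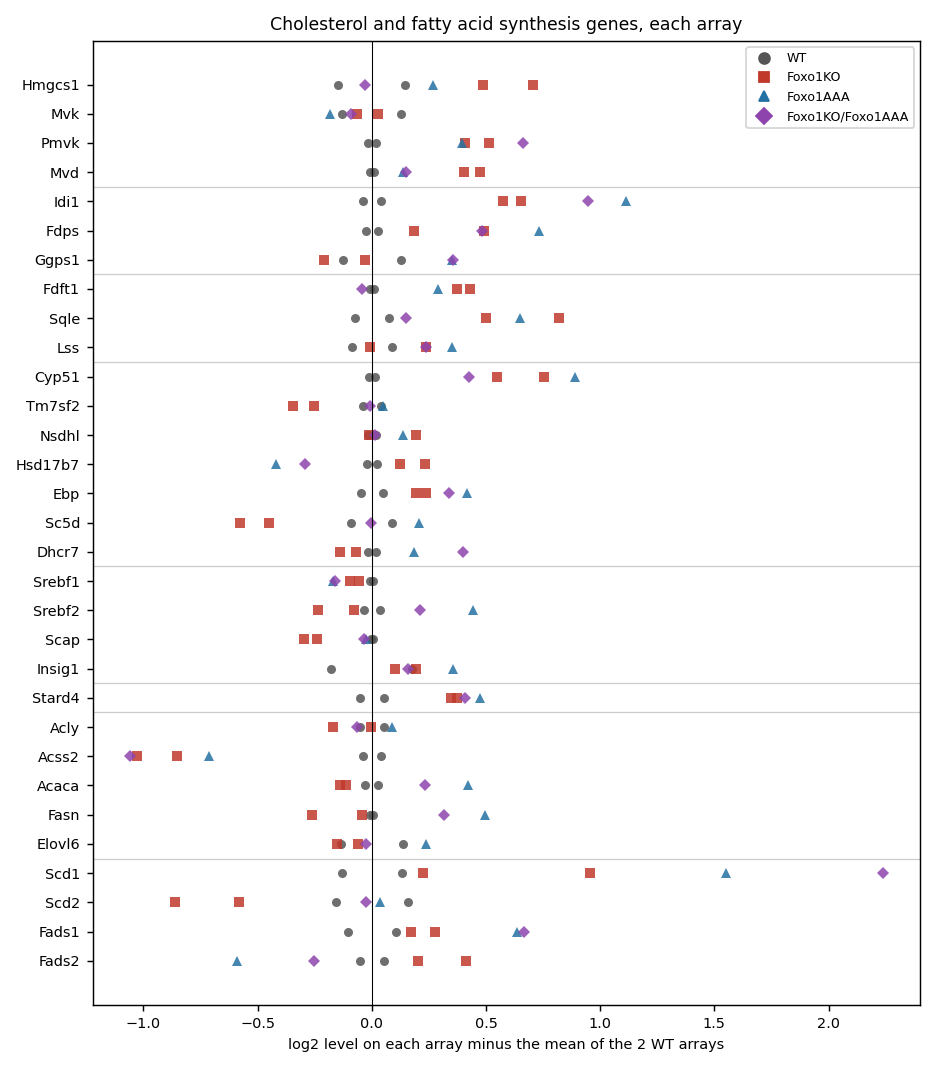
Log2 level of each of the 31 genes on each of the 6 arrays, minus the mean of the 2 WT arrays (horizontal axis), with genes ordered by step and grey lines between roles. Both Foxo1KO squares lie right of both WT circles for Hmgcs1, Idi1, Sqle and Cyp51 and left of them for Sc5d, Acss2 and Scd2, and the Foxo1AAA triangle and Foxo1KO/Foxo1AAA diamond lie farthest right for Scd1.

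The mevalonate arm turns acetyl-CoA units into the isoprenoid precursor, and 3 of its 4 measured enzymes rose in Foxo1KO. Hmgcs1, the synthase that makes HMG-CoA, read 10.53 and 10.24 in WT, 10.87 and 11.09 in Foxo1KO, 10.65 in Foxo1AAA and 10.36 in Foxo1KO/Foxo1AAA. Both Foxo1KO arrays were above every other array. The difference from WT was 0.60 (SE 0.13, 1.51-fold, adjusted p = 0.0098), or 0.39 (0.0238) with the mean of all probe sets. Pmvk, which phosphorylates mevalonate phosphate, read 7.66 and 7.69 in WT, 8.09 and 8.19 in Foxo1KO, 8.07 in Foxo1AAA and 8.34 in Foxo1KO/Foxo1AAA. All 4 mutant arrays lay above WT, and the Foxo1KO difference was 0.46 (SE 0.09, 1.38-fold, adjusted p = 0.00815). Mvd, the decarboxylase that ends the arm, read 7.75 and 7.77 in WT, 8.16 and 8.23 in Foxo1KO, 7.89 in Foxo1AAA and 7.90 in Foxo1KO/Foxo1AAA. The Foxo1KO pair was again highest, with a difference of 0.44 (SE 0.09, 1.35-fold, adjusted p = 0.00953). Without Foxo1KO replicate 2 these 3 calls ended, with adjusted p of 0.077 for Hmgcs1, 0.0571 for Pmvk and 0.0601 for Mvd. Mvk, the first kinase of the arm, differed by -0.02 with overlapping groups (adjusted p = 0.927).

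Idi1, which interconverts the 2 isoprenoid units, read 8.91 and 8.83 in WT, 9.45 and 9.53 in Foxo1KO, 9.98 in Foxo1AAA and 9.82 in Foxo1KO/Foxo1AAA. Every mutant array was above both WT arrays, and the Foxo1KO difference was 0.62 (SE 0.09, 1.53-fold, adjusted p = 0.0018). Fdps, the farnesyl diphosphate synthase, read 7.92 and 7.86 in WT and 8.08 and 8.38 in Foxo1KO, a difference of 0.34 that was not called (adjusted p = 0.076); leaving out Foxo1KO replicate 1 gave a called difference of 0.49 (0.0318). Ggps1, which makes the geranylgeranyl group used in prenylation, differed by -0.12 (adjusted p = 0.541).

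Squalene synthesis and its epoxidation also rose. Fdft1, the squalene synthase, read 9.32 and 9.34 in WT, 9.70 and 9.76 in Foxo1KO, 9.61 in Foxo1AAA and 9.28 in Foxo1KO/Foxo1AAA. The Foxo1KO pair stood above every other array by its used probe set, with a difference of 0.40 (SE 0.09, 1.32-fold, adjusted p = 0.014). Its call ended without WT replicate 1 (adjusted p = 0.0614), WT replicate 2 (0.0508) or Foxo1KO replicate 2 (0.0748), and with the mean of all probe sets (0.0917), which moved the difference to 0.22. Sqle, the squalene epoxidase and a rate-limiting step of its own, read 8.13 and 7.99 in WT, 8.56 and 8.88 in Foxo1KO, 8.71 in Foxo1AAA and 8.21 in Foxo1KO/Foxo1AAA. Both WT arrays were lower than every mutant array, and the Foxo1KO difference was 0.66 (SE 0.12, 1.58-fold, adjusted p = 0.00545). Lss, which closes the ring to lanosterol, overlapped between WT and Foxo1KO with a difference of 0.12 (adjusted p = 0.547).

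From lanosterol on, 1 of 7 enzymes rose and 1 fell. Cyp51, the lanosterol demethylase, read 8.16 and 8.14 in WT, 8.70 and 8.90 in Foxo1KO, 9.04 in Foxo1AAA and 8.58 in Foxo1KO/Foxo1AAA. No mutant array reached down to WT, and the Foxo1KO difference was 0.65 (SE 0.10, 1.57-fold, adjusted p = 0.00219). Sc5d, a desaturase that acts late in the route, read 10.05 and 10.23 in WT, 9.56 and 9.69 in Foxo1KO, 10.35 in Foxo1AAA and 10.14 in Foxo1KO/Foxo1AAA. Only the Foxo1KO pair was low, by a difference of -0.51 (SE 0.10, 1.43-fold lower, adjusted p = 0.00809), and without Foxo1KO replicate 1 the adjusted p was 0.0621. The other 5, Tm7sf2, Nsdhl, Hsd17b7, Ebp and Dhcr7, differed by -0.30 to 0.22 and were not called. Ebp and Nsdhl lie on the X chromosome, and WT and Foxo1KO each held 1 array low and 1 array high in the Y-linked gene.

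The regulators themselves did not pass the test. Srebf1 (-0.08), Srebf2 (-0.16), Scap (-0.27) and Insig1 (0.15) were not called between Foxo1KO and WT, with adjusted p of 0.624, 0.325, 0.0723 and 0.478. Scap, the escort that carries SREBP to the Golgi, read 9.75 and 9.76 in WT and 9.46 and 9.51 in Foxo1KO, and the pairs did not overlap. Stard4, a soluble carrier that moves cholesterol between membranes, read 9.23 and 9.13 in WT, 9.55 and 9.53 in Foxo1KO, 9.65 in Foxo1AAA and 9.59 in Foxo1KO/Foxo1AAA. All mutant arrays were above WT, and the Foxo1KO difference was 0.36 (SE 0.09, 1.28-fold, adjusted p = 0.0251). The call for Stard4 ended without WT replicate 2 (adjusted p = 0.143), Foxo1KO replicate 1 (0.106) or Foxo1KO replicate 2 (0.0838).

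Fatty acid genes did not follow the early sterol enzymes. All 5 genes of acetyl-CoA supply and chain building had negative differences in Foxo1KO, but only Acss2 was called. Acss2, which makes acetyl-CoA from acetate in the cytosol and nucleus, read 9.62 and 9.54 in WT, 8.73 and 8.55 in Foxo1KO, 8.87 in Foxo1AAA and 8.52 in Foxo1KO/Foxo1AAA. It was low on all 4 mutant arrays, with a Foxo1KO difference of -0.94 (SE 0.10, 1.92-fold lower, adjusted p = 0.000246), the largest of the 31 genes in this comparison. Acly, which makes acetyl-CoA from citrate, Acaca, the carboxylase that commits it to fatty acids, Fasn, the fatty acid synthase, and Elovl6, which extends the product, differed by -0.15 to -0.09. Scd2, a desaturase that makes monounsaturated fatty acids, read 11.81 and 11.49 in WT, 10.79 and 11.07 in Foxo1KO, 11.69 in Foxo1AAA and 11.62 in Foxo1KO/Foxo1AAA. The Foxo1KO pair was lowest, by a difference of -0.72 (SE 0.14, 1.65-fold lower, adjusted p = 0.00529). Scd1, the related desaturase of liver and fat, read 5.98 and 6.24 in WT and 7.07 and 6.34 in Foxo1KO, which did not overlap but whose replicates were far apart (difference 0.59, adjusted p = 0.0808). Leaving out Foxo1KO replicate 2 gave a called difference of 0.96 (adjusted p = 0.00572), and leaving out WT replicate 2 one of 0.72 (0.0402). Fads1 (0.22) and Fads2 (0.31), desaturases of polyunsaturated fatty acids, were not called.

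**Figure D2:**
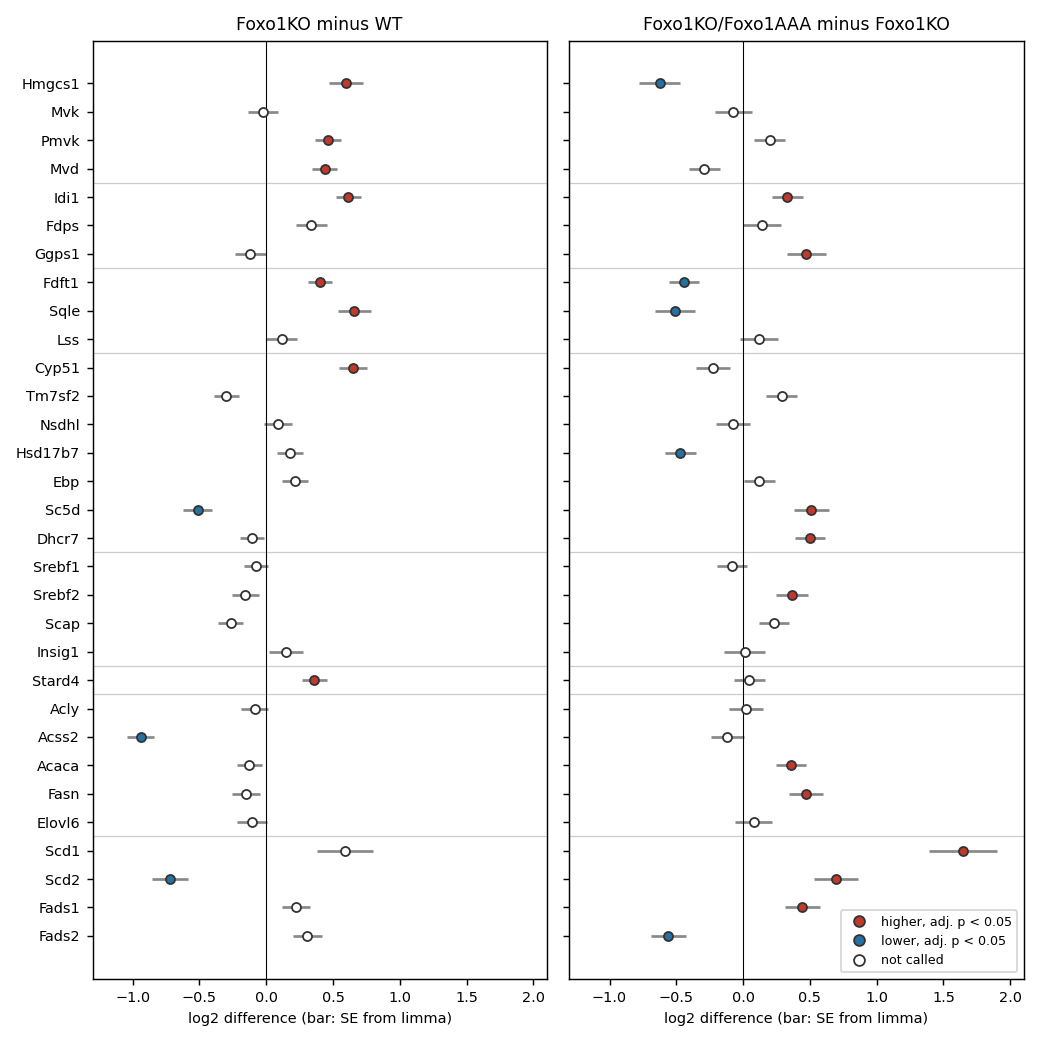
Log2 difference of each of the 31 genes in Foxo1KO minus WT (left) and in Foxo1KO/Foxo1AAA minus Foxo1KO (right), with the standard error from limma as a bar and filled points for genes called at an adjusted p under 0.05. Hmgcs1, Fdft1 and Sqle are called to the right in the left panel and to the left in the right panel, and Sc5d and Scd2 the other way round; both panels share the Foxo1KO arrays.

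Other probe sets of the called genes bore on these values. Of the 31 genes, 22 had several probe sets, 74 in all. The second Idi1 probe set differed by 0.99 between Foxo1KO and WT, the second Acss2 by -0.78, the second Scd2 by -0.75, the second Sc5d by -0.91 and the second Cyp51 by 0.70, all in the direction of the one used. Hmgcs1 had 3 further bright probe sets, which differed by 0.53, 0.51 and 0.44, and a dim one at -0.09. Fdft1 split, with 0.38 for one further probe set and 0.20 and -0.11 for the dimmer ones. Hsd17b7, not called by its used probe set, had a second one at 0.44 (adjusted p = 0.0237 over all probe sets), and Scap had a second one at -0.40 (0.0219).

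**Figure D3:**
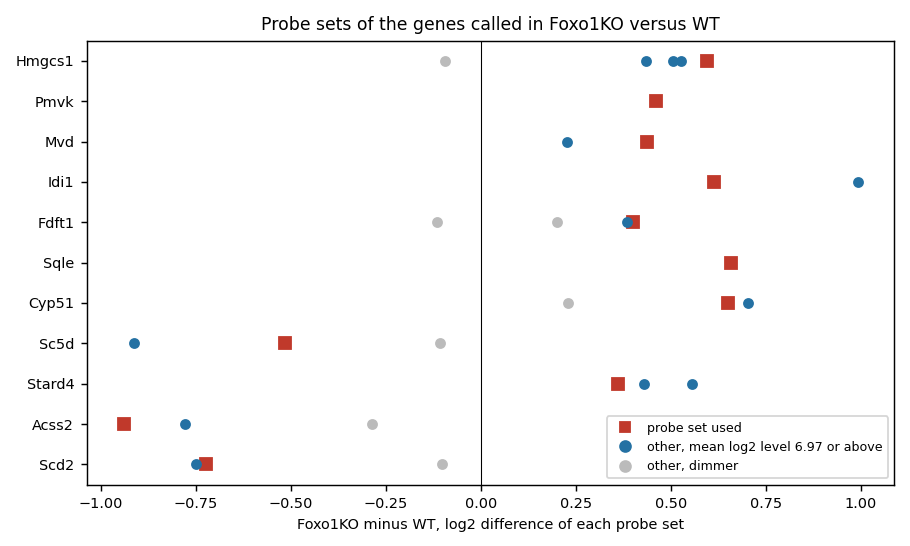
Log2 difference in Foxo1KO minus WT for every probe set of the 11 called genes, with red squares for the probe set used, blue circles for others with a mean log2 level of 6.97 or above and grey circles for dimmer ones. The blue points lie on the same side of 0 as the red square for every gene that has one, and grey points of Hmgcs1 and Fdft1 cross 0.

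The promoters of these genes were read for short sequence motifs. RefSeq start sites on GRCm38.p6 were listed for 24 of the 31 genes, and the 250 bases before each start were searched on both strands. CCAAT, the box bound by NF-Y, which acts beside SREBP at sterol genes, was present before at least 1 start of 19 of the 24 genes (79.2%), against 37.5% of the 27025 genes listed. Counted by start, it was before 20 of the 30 listed for these genes (66.7%), against 33.8% of all 32851. It was found in 5 of 5 called higher in Foxo1KO, 2 of 2 called lower and 12 of 17 not called, so that its presence did not separate the directions. TCACCCCAC, the core of the sterol regulatory element, was found in Hmgcs1 alone of the 24 (0.555% of all listed genes hold it). CACGTG, the E-box that SREBP proteins can also bind, was found in Dhcr7, Hsd17b7, Insig1, Sc5d and Scap (20.8%, against 6.86% of all listed genes). GTAAACA, a forkhead motif, was found in Elovl6 (3.54% of all listed genes), a gene that was not called in Foxo1KO.

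Shown here are 3 genes that rose (Hmgcs1, Idi1, Cyp51) and 2 that fell (Sc5d, Acss2) in Foxo1KO, each as the 250 bases before its start, 5′ to 3′ on the gene's strand, with CCAAT on either strand, TCACCCCAC and CACGTG in capitals. Hmgcs1 lies at chr13:119690101-119690350 on the plus strand, Idi1 at chr13:8885356-8885605 on the plus strand, Cyp51 at chr5:4104698-4104947 on the minus strand, Sc5d at chr9:42264301-42264550 on the minus strand and Acss2 at chr2:155517793-155518042 on the plus strand.
Hmgcs1: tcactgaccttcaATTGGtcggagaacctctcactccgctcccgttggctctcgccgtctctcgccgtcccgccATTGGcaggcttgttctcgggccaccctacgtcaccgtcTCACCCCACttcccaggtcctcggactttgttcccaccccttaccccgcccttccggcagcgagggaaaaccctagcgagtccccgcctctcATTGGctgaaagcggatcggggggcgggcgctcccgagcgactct
Idi1: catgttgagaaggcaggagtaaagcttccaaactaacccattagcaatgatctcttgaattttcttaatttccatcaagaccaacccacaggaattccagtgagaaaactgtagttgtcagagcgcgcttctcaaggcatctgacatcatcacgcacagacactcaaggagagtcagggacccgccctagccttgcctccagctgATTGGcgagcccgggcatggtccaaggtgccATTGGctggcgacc
Cyp51: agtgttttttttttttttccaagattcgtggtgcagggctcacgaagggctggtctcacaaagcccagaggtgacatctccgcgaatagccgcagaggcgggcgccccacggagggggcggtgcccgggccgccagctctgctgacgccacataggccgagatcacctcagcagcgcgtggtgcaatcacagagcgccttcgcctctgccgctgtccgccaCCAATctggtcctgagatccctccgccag
Sc5d: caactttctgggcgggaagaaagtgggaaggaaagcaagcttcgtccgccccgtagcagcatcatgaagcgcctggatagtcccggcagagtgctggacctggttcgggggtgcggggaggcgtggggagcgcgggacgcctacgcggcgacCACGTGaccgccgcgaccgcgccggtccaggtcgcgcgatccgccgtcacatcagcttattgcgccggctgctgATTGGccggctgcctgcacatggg
Acss2: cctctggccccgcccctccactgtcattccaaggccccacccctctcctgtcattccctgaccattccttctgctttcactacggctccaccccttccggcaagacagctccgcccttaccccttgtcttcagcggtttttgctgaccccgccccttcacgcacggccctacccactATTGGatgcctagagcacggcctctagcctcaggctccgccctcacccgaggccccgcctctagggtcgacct
Hmgcs1 carries 3 CCAAT boxes, at 237, 176 and 45 bases before the start, with the sterol element core between them at 137. Idi1 carries 2, at 45 and 14, and Cyp51 carries 1, at 29. Both genes that fell also carry the box, Sc5d at 24 with an E-box at 98 and Acss2 at 73. A match describes the letters only and does not show that a factor was bound.

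With the active form present in Foxo1KO cells, some of the genes that had risen were lower and some that had fallen were higher than in Foxo1KO. Of the 31 genes, 10 were higher and 5 lower in Foxo1KO/Foxo1AAA than in Foxo1KO, which is 48.4% called, in a comparison that called 39.8% of all tested genes (19.6% higher and 20.2% lower). The median was 0.12, against -0.02 over all genes. The comparison shares the Foxo1KO arrays with that against WT, so opposite signs between them are not independent of each other. Macrophage markers moved with this comparison: 5 of 5 tested were higher, by a median of 2.86, and their part in the results was not tested. The split depended on scaling. With arrays centred on their medians, which put the median of all genes at -0.19, 3 were higher and 7 lower (26.8% of all calls then higher, against 49.2%), and after cyclic loess 7 were higher and 6 lower. Without Foxo1KO replicate 1 there were 6 calls, 2 higher and 4 lower, and without Foxo1KO replicate 2 there were 10.

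Of the 8 sterol genes that were high in Foxo1KO, Hmgcs1, Fdft1 and Sqle fell. Hmgcs1 fell by 0.62 (SE 0.15, adjusted p = 0.0131), Fdft1 fell by 0.44 (SE 0.11, adjusted p = 0.0142) and Sqle fell by 0.51 (SE 0.15, adjusted p = 0.0284). For all 3 the Foxo1KO/Foxo1AAA array lay below both Foxo1KO arrays by the probe set used. For Hmgcs1 and Fdft1 it lay within or below the WT pair by that probe set. The further bright Hmgcs1 probe sets differed from Foxo1KO by -0.66, -0.33 and 0.05, and a dim one by -0.70. Those at -0.33 and 0.05 read above both WT arrays. Further Fdft1 probe sets differed by -0.14, -0.44 and -0.47, and the one at -0.14 read above both WT arrays. Without Foxo1KO replicate 2 the adjusted p was 0.0584 for Hmgcs1 and 0.101 for Sqle. Mvd (-0.29, adjusted p = 0.0711), Cyp51 (-0.23, 0.189), Pmvk (0.20, 0.201) and Stard4 (0.05, 0.774) were not called. Mvd and Cyp51 were called lower under both other scalings. They differed by -0.46 and -0.40 with arrays centred on their medians, and by -0.34 and -0.36 after cyclic loess. Idi1 was higher still, by 0.33 (SE 0.12, adjusted p = 0.0495), but its second probe set differed by -0.53, the mean of both gave -0.10, and the call ended under 8 of 11 alternatives.

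Of the 3 genes that were low in Foxo1KO, 2 were higher with the active form. Scd2 rose by 0.69 (SE 0.17, adjusted p = 0.0114) and Sc5d by 0.51 (SE 0.13, adjusted p = 0.0139). By the probe sets used, both lay within the WT pair's range on the Foxo1KO/Foxo1AAA array. A further bright probe set read above both WT arrays there for Scd2 (8.14 against 7.47 and 7.70) and for Sc5d (7.53 against 7.46 and 7.38). A dim Scd2 probe set also read above WT (5.87 against 5.62 and 5.79). A dim Sc5d probe set read below WT (5.77 against 6.15 and 6.42). Without Foxo1KO replicate 1 the adjusted p was 0.0573 for Scd2 and 0.0627 for Sc5d, and for Sc5d it was 0.0664 with arrays centred on their medians. Acss2 stayed low, at 8.52 against 8.73 and 8.55 in Foxo1KO (-0.12, adjusted p = 0.48).

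Further genes that had not been called between Foxo1KO and WT moved with the active form. Scd1 read 8.35 on the Foxo1KO/Foxo1AAA array and 7.66 on the Foxo1AAA array, above all 4 others, and its difference from Foxo1KO of 1.65 (SE 0.26, 3.13-fold, adjusted p = 0.00167) was the largest of the 31 genes; the mean of its probe sets gave 0.77. Dhcr7, the last reductase of the route, read 8.64 and 8.57 in Foxo1KO and 9.11 with the active form, a difference of 0.50 (SE 0.11, adjusted p = 0.00878), or 0.33 with arrays centred on their medians. Fasn read 9.07 and 9.29 against 9.65 (0.47, adjusted p = 0.0198), and Acaca 7.97 and 7.94 against 8.32 (0.36, adjusted p = 0.0343). Both lipogenic enzymes also exceeded both WT arrays there. Srebf2 read 8.84 and 9.00 against 9.29 (0.37, adjusted p = 0.0417), Ggps1 8.89 and 9.07 against 9.46 (0.47, adjusted p = 0.03), and Fads1 7.70 and 7.60 against 8.10 (0.44, adjusted p = 0.0272). The calls for Fasn, Acaca, Srebf2, Ggps1 and Fads1 ended with arrays centred on their medians (adjusted p = 0.0799, 0.201, 0.189, 0.106 and 0.149), and without Foxo1KO replicate 1 (0.082, 0.0777, 0.15, 0.123 and 0.0531). Acaca and Fads1 also lost their calls without Foxo1KO replicate 2 (0.0873 and 0.0921). With the mean of all probe sets, Acaca differed by 0.02 (adjusted p = 0.892), Ggps1 by 0.29 (0.0595) and Srebf2 by 0.27 (0.0761), and none was called.

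Fads2 and Hsd17b7 were the other genes that fell. Fads2 read 6.19 and 6.40 in Foxo1KO, 5.73 in Foxo1KO/Foxo1AAA and 5.40 in Foxo1AAA, and fell by 0.56 (SE 0.13, adjusted p = 0.0102). Its mean over the arrays was close to the filter level of 5.467, and the mean of all its probe sets gave 0.07. The mean of all probe sets also turned Fads1, to -0.10, since its second probe set differed by -0.65. Hsd17b7, a reductase of the late sterol route, read 8.19 and 8.08 in Foxo1KO and 7.66 with the active form (-0.47, SE 0.12, adjusted p = 0.0127; 0.0544 without Foxo1KO replicate 1). Acly was not called by its used probe set (0.02), although 2 others of the gene differed by 0.72 and 1.22.

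The active form in cells with Foxo1 intact gave 12 genes higher and 3 lower than WT, 48.4% called against 27.5% of all tested genes (13.4% higher and 14.1% lower). The median of the 31 genes was 0.29, against -0.02 over all genes. Early and middle sterol steps were among the higher ones: Idi1 by 1.11 (adjusted p = 0.000362), Cyp51 by 0.89 (0.00176), Fdps by 0.73 (0.00777), Sqle by 0.65 (0.0155) and Pmvk by 0.39 (0.0355). Scd1 was higher by 1.55 (adjusted p = 0.00366), Fads1 by 0.64, Fasn by 0.50, Stard4 by 0.47, Srebf2 by 0.44, Acaca by 0.42 and the isomerase Ebp by 0.41. Acss2 (-0.71, adjusted p = 0.00482), Fads2 (-0.59) and Hsd17b7 (-0.42) were lower. With arrays centred on their medians 6 were higher and 4 lower (23.4% of all calls then higher, against 48.8%), and without WT replicate 2 there were 8 calls in place of 15. The calls that ended without WT replicate 2 were those of Acaca (adjusted p = 0.0528), Ebp (0.112), Fasn (0.0516), Hsd17b7 (0.0625), Pmvk (0.0817), Srebf2 (0.0892) and Stard4 (0.0685). Without WT replicate 1, Acaca (0.0789), Hsd17b7 (0.0818) and Pmvk (0.0965) lost theirs. With the mean of all probe sets, 5 genes were no longer called: Acaca (0.04, adjusted p = 0.834), Fads1 (0.15, 0.368), Fads2 (-0.13, 0.332), Fdps (0.34, 0.0801) and Hsd17b7 (-0.06, 0.651). Scd1 (0.74), Cyp51 (0.56) and Acss2 (-0.45) moved by over 1.5 times with their calls kept. Acly (0.09) and Elovl6 (0.24) were not called by the probe sets used. Other bright ones differed by 0.65 and 1.14 for Acly and by 0.85 for Elovl6. Dim ones differed by -0.06 to 0.09 for Acly and by -0.38 for Elovl6. The mean of all probe sets gave a called difference of 0.31 for Acly. Other probe sets of Fads2 and Hsd17b7 went both ways. Those of Fads2 differed by 0.40 (adjusted p = 0.0417 over all probe sets) and -0.20, and those of Hsd17b7 by 0.15, 0.18 and -0.16. The other Acss2 probe sets differed by -0.36 and -0.29, in the direction of the one used. All 5 tested macrophage markers were higher here too, and the arrays differed in Xist and Eif2s3y, which touches the X-linked Ebp.

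Foxo1KO/Foxo1AAA against WT called 9 of the 31 genes (29%, against 30.7% of all tested genes, 17% higher and 13.7% lower), a share near the background. The 8 higher genes were Scd1 (2.24, adjusted p = 0.000455), Idi1 (0.95, 0.00064), Fads1 (0.67), Pmvk (0.66), Fdps (0.48), Cyp51 (0.43), Stard4 (0.41) and Dhcr7 (0.40), and Acss2 (-1.06, adjusted p = 0.000527) was lower. With arrays centred on their medians 4 were higher and 4 lower, and without WT replicate 2, 5 calls were made. Without that array the calls of Cyp51 (adjusted p = 0.0879), Dhcr7 (0.0713), Fdps (0.0817) and Stard4 (0.115) ended, and without WT replicate 1 those of Cyp51 (0.0623) and Dhcr7 (0.0839). After cyclic loess the same 4 had adjusted p of 0.0593, 0.0763, 0.0584 and 0.0683. With the mean of all probe sets, Fads1 differed by 0.06 (adjusted p = 0.743), its second probe set by -0.56, and Fdps by 0.35 (0.0722), and neither was called; Scd1 (1.16) and Acss2 (-0.62) kept their calls. Acss2 was thus called lower than WT in all 3 mutant groups, which share the WT arrays. Between Foxo1KO/Foxo1AAA and Foxo1AAA, limma called none of the 31 genes (5 at an unadjusted p under 0.05) and 10 of all tested genes (0.0733%, of which 0.066% higher and 0.00733% lower), with 1 array on each side.

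Whether the Foxo1KO difference changed with the active form was tested as an interaction, the knockout difference with Foxo1AAA minus that without it. It was called for 4 of the 31 genes, all lower (12.9%, against 5.94% of all tested genes, 2.81% higher and 3.14% lower): Sqle by -1.16 (SE 0.22, adjusted p = 0.0178), Cyp51 by -1.12 (SE 0.18, 0.00989), Idi1 by -0.78 (SE 0.16, 0.0287) and Fdft1 by -0.73 (SE 0.16, 0.0323). For these genes the Foxo1KO pair was above WT, while the Foxo1KO/Foxo1AAA array was below the Foxo1AAA array, by -0.50 for Sqle, -0.47 for Cyp51, -0.16 for Idi1 and -0.33 for Fdft1. Hmgcs1 missed the threshold (-0.89, adjusted p = 0.0513). Without Foxo1KO replicate 1 or replicate 2, 2 calls were made; Idi1 then had adjusted p of 0.0589 and 0.0831, and Fdft1 of 0.066 and 0.088. Without WT replicate 1 Fdft1 had 0.0511, and without WT replicate 2 Idi1 had 0.0511. With the mean of all probe sets the Fdft1 interaction was -0.35 (adjusted p = 0.2) and that of Cyp51 -0.64 (0.0467). The interaction rests on 1 array in 2 of its 4 groups.

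Among genes around the routes, the sterol exporter Abca1 fell in Foxo1KO and the lipoprotein receptor Lrp8 rose. Of 15 tested genes of sterol uptake, export and storage, 2 were higher and 4 lower (median -0.04). That is to be read, as are the counts of the lists that follow, against the 21.8% of all tested genes called in Foxo1KO versus WT, 11.2% higher and 10.7% lower. Abca1, the exporter that loads cholesterol onto apolipoproteins, read 9.59 and 9.25 in WT, 8.22 and 8.15 in Foxo1KO, 10.29 in Foxo1AAA and 10.45 in Foxo1KO/Foxo1AAA. It was lowest in Foxo1KO (-1.24, adjusted p = 0.000155) and highest on the arrays with the active form (2.27 above Foxo1KO, adjusted p = 1.81e-05). Averaged over every Abca1 probe set, these differences were -0.43 (adjusted p = 0.00886) and 0.75 (0.00148). Mylip, a ligase that marks lipoprotein receptors for degradation, fell in Foxo1KO (-0.88, adjusted p = 0.00025), and Lrp8, one of those receptors, was higher by 0.89 (0.000498), or 0.41 with the mean of all probe sets. Of 11 genes that process or control SREBP none was higher and 3 were lower: Ppargc1b (-0.49), Prkaa1 (-0.48) and Lpin1 (-0.32), a share near the background. Among 3 other sterol synthesis genes, Acat1, which has a mitochondrial role in ketone use, fell by 0.59 (-0.39 with the mean of all probe sets) and Erg28 rose by 0.31, a call that ended without any one of the 4 WT and Foxo1KO arrays (adjusted p 0.0946 to 0.198).

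Acss1, the mitochondrial counterpart of Acss2, was the 1 of 8 citrate and acetyl-CoA supply genes that was called. It read 8.86 and 8.78 in WT, 7.56 and 7.87 in Foxo1KO, 8.80 in Foxo1AAA and 8.70 in Foxo1KO/Foxo1AAA. Only the Foxo1KO pair was low, by -1.11 (adjusted p = 0.000236; -0.59 with the mean of all probe sets), where Acss2 was low on all mutant arrays. Of 15 fatty acid elongation, activation and esterification genes, 4 were higher and 3 lower, led by the fatty acid carrier Fabp5 (1.42, adjusted p = 2.82e-05), the elongation enzyme Hacd3 (-0.57) and Acsl3 (-0.54). Fatty acid oxidation gave 4 higher and 2 lower of 18, led by Decr1 (-0.86), Acadl (0.77, or 0.41 with the mean of all probe sets) and Eci1 (-0.63). In prenylation and isoprenoid use 1 of 12 was higher (Dhdds, 0.33) and 2 lower, the ubiquinone genes Pdss2 (-0.65) and Coq2 (-0.51). Some of these calls ended when 1 array was left out. Those of Lpin1 and Dhdds ended without any one of the 4 arrays (adjusted p 0.0922 to 0.172 and 0.0951 to 0.154). Prkaa1 had 0.203 without WT replicate 1, 0.226 without Foxo1KO replicate 1 and 0.0554 without Foxo1KO replicate 2. Acsl3 had 0.0552 without WT replicate 1 and 0.0846 without Foxo1KO replicate 1, and Coq2 had 0.0536 without Foxo1KO replicate 1.

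Genes of the cell cycle moved with the genotypes. All 15 tested were higher in Foxo1KO than in WT (median 1.33), including Birc5 (1.93, adjusted p = 2.2e-05), Aurkb (1.87) and Cdk1 (1.82), and 13 of 15 were higher in Foxo1AAA and in Foxo1KO/Foxo1AAA than in WT. Birc5, or survivin, which acts in mitosis, read 9.45 and 9.07 in WT, 11.17 and 11.21 in Foxo1KO, 10.75 in Foxo1AAA and 11.16 in Foxo1KO/Foxo1AAA. The part of the cell cycle genes in the sterol and fatty acid gene values was not tested.

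**Figure D4:**
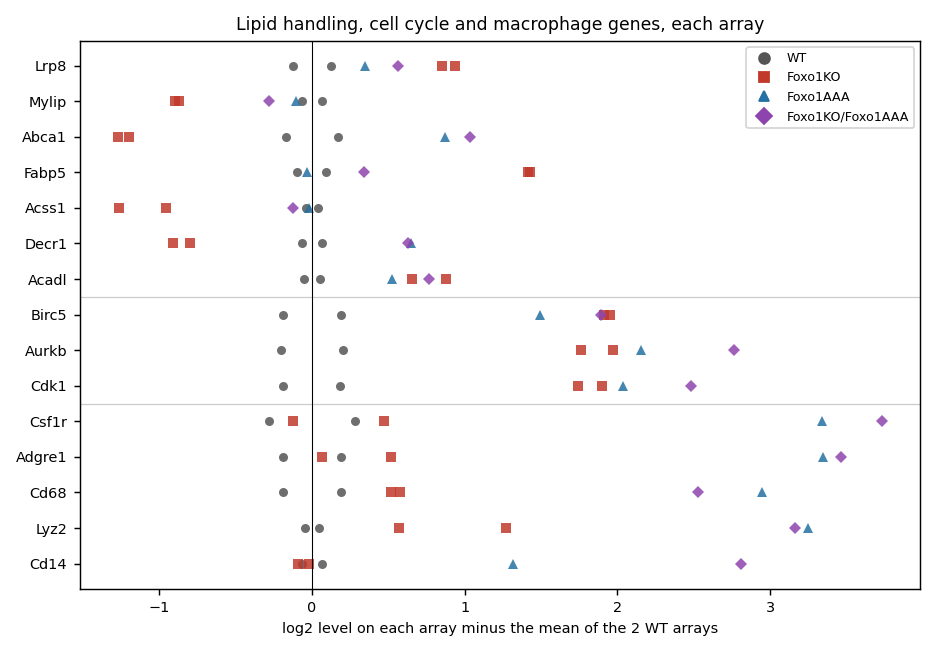
Log2 level on each of the 6 arrays minus the mean of the 2 WT arrays (horizontal axis) for lipid handling genes (top), cell cycle genes (middle) and macrophage markers (bottom). Foxo1KO squares lie left of WT for Abca1, Mylip, Acss1 and Decr1, all mutant arrays lie right for the cell cycle genes, and the 2 arrays with the active form lie right for the macrophage markers.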

How the data were processed

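Total RNA of sorted Treg cells was labelled with biotin and hybridised to Affymetrix arrays, 6 in all. The authors deposited log2 values of 45101 probe sets, for which the submitters' processing notes name RMA, limma 3.12.1 and R 2.15. They were used as deposited, with no further scaling. GEO's platform annotation named 1 gene for 34958 probe sets and several for 932, and 9211 were not listed. The brightest probe set over the 6 arrays stood for each of 18194 genes, and the lowest 25% were left out (mean below 5.467). One model with 1 coefficient per group was fitted with limma 3.58.1 in R 4.3.3 (lmFit, eBayes, residual df 2, prior df 6.59), two-sided, for 6 comparisons, with Benjamini-Hochberg adjustment over 13645 genes. The fitting steps were tested on simulated data.

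The members and gene lists were chosen with earlier results of these data known. Values are given for every member called in Foxo1KO versus WT or Foxo1KO/Foxo1AAA versus Foxo1KO, and for at most the 3 called genes of each other list with the largest differences in Foxo1KO. Alternatives were the filter, the mean of all probe sets, the prior, 2 scalings, the replicate number as a block and leaving out each replicate. Same-numbered replicates did not deviate together (correlation -0.096) and were not paired. Promoters were searched for exact motifs.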

Additional observations from a re-analysis of the deposited data

Results flagged for a closer look

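For 12 of the named genes the Foxo1KO difference changed with the active form, by the interaction test with limma. This test called 5.94% of all tested genes. Among all 31 cholesterol and fatty acid synthesis genes it called 4 (12.9%). In these the Foxo1KO difference was lower with the active form: Sqle (-1.16), Cyp51 (-1.12), Idi1 (-0.78) and Fdft1 (-0.73). Of the lipid handling genes, Abca1 (1.4), Acss1 (1.01), Decr1 (0.83) and Mylip (0.71) had higher knockout differences with the active form, and Fabp5 (-1.04) a lower one. The cell cycle genes Birc5 (-1.53), Cdk1 (-1.38) and Aurkb (-1.26) had lower ones. These lipid handling and cell cycle genes were named for the largest Foxo1KO differences of their lists. The Foxo1KO difference enters the interaction with a minus sign, so this choice favours interactions of the opposite sign. All of them had that sign, and their number cannot be compared with the share of all tested genes. Each value rests on 1 Foxo1AAA and 1 Foxo1KO/Foxo1AAA array, which also carried the macrophage markers. No group held enough arrays to look for single outlying arrays.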

How the results depend on the processing

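Of 611 values of called members under the alternatives, 519 kept direction and call, 89 lost the call and 3 turned, all in Foxo1KO/Foxo1AAA versus Foxo1KO with the mean of all probe sets: Fads1 (-0.10), Fads2 (0.0722) and Idi1 (-0.10). Leaving out 1 replicate gave 7 to 10 members called in Foxo1KO versus WT in place of 11 (7 without Foxo1KO replicate 2), 6 to 14 in Foxo1KO/Foxo1AAA versus Foxo1KO in place of 15, 8 to 15 in Foxo1AAA versus WT in place of 15, 5 to 9 in Foxo1KO/Foxo1AAA versus WT in place of 9, and 2 to 4 in the interaction in place of 4. Cyclic loess gave 5 calls in Foxo1KO/Foxo1AAA versus WT. With the replicate block, 10 members were called in Foxo1KO versus WT, all among the 11, and Stard4 was lost; it changed no other member's call there, and among the other named genes Dhdds, Erg28, Foxo1 and Lpin1 lost theirs. The other alternatives gave 11 to 13 calls in Foxo1KO versus WT. None of the alternatives run ended the calls of Acss2, Cyp51, Idi1, Scd2 or Sqle in Foxo1KO versus WT. The lowest-50% filter removed 3 members, and the calls of Fads2 rest on levels close to the filter. The cause of the changes was not tested.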

Other observations

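Chosen after their values were seen, 2 further lipid genes stood out on the arrays with the active form. Apoe, the apolipoprotein that carries cholesterol and is abundant in macrophages, read 6.03 and 6.30 in WT, 6.07 and 5.67 in Foxo1KO, 9.80 in Foxo1AAA and 9.88 in Foxo1KO/Foxo1AAA. Both arrays with the active form lay far above the other 4, by 4.01 in Foxo1KO/Foxo1AAA over Foxo1KO (SE 0.18, limma adjusted p = 2.76e-06). Elovl3, a fatty acid elongase, read 5.24 to 5.54 on the 4 other arrays, 8.60 in Foxo1AAA and 8.77 in Foxo1KO/Foxo1AAA. Its difference in the same comparison was 3.32 (SE 0.12, adjusted p = 1.8e-06). The part of macrophage RNA in these values was not tested.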
